A study of Mus musculus with 12 samples.

Results

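The cytochrome P450 genes of the kidney were followed in mice with and without a deletion of Ybx3, after ischemia/reperfusion injury (IRI) and without it. Members of this gene family were the rows of the deposited count table annotated as protein coding whose symbol is Cyp followed by a digit. The adrenal steroid genes, whose symbols begin with Cyp11, Cyp17 or Cyp21, were left out by this rule, as were 16 pseudogene and antisense rows. This gave 95 genes of 42748 in the table, of which 21487 are protein coding. IRI stops and then restores the blood flow of the kidney, and Ybx3 encodes the cold shock domain protein DbpA. RNA of kidney came from mice in 4 groups of 3 libraries: Ybx3 knockout after IRI, Ybx3 knockout control, wild-type after IRI and wild-type control. The strain, the sex, the age, the time after IRI, the cells that carry the deletion and whether each library is a separate animal are absent from the labels. The p-values therefore cover the spread between these libraries, which may in part be technical. Ybx3 itself lay between 9.28 and 18.6 CPM (the usual scale of counts relative to the scaled library size) in the 6 knockout libraries, against 30.2 to 104.5 CPM in the 6 wild-type libraries.

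P450 enzymes are haem proteins of the endoplasmic reticulum or the mitochondrion that insert an oxygen atom into their substrates, with electrons supplied by partner reductases. In the kidney they activate and degrade vitamin D, hydroxylate and epoxidise fatty acids such as arachidonic acid, take part in sterol synthesis and breakdown, and metabolise drugs and solvents. Most are found in the proximal tubule, and in mice several are known to be expressed at different levels in males and females.

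Libraries held 39074224 to 67948710 counts. The labels give no sex, and the summed level of the Y-linked genes Ddx3y, Kdm5d, Eif2s3y and Uty differed within groups. It was 45.2, 227 and 1.26 CPM in replicates 1 to 3 of knockout IRI, 1.18, 249 and 261 CPM in those of knockout control, 207, 33.2 and 307 CPM for wild-type IRI, and 1.14, 1.79 and 1.54 CPM for wild-type control. The values of 45.2 and 33.2 CPM are called intermediate, those under 2 CPM low and the others high. All 3 wild-type control libraries were thus of low Y-linked level, so that the Y-linked level cannot be told apart from IRI in wild type, nor fully from genotype in control kidneys. The 5 adrenal markers summed to 272 and 1397 CPM in knockout IRI replicates 1 and 2, called the adrenal libraries, against 5.15 to 7.49 CPM in the 10 others. Proximal tubule markers, present in all libraries, summed to 5185 to 7982 CPM in knockout IRI against 10790 to 18544 CPM in knockout control, and to 5675 to 8222 CPM in wild-type IRI against 12512 to 17163 CPM in wild-type control. All 10 markers had a negative log2 fold change in knockout. In wild type 7 were negative and 3 positive. There every IRI library lay below every control library for 7 markers and above for 2, beside 19.9% and 21.2% of all genes. Of the 10, 6 were called lower and none higher in wild type, beside 9.41% and 13.1% of all genes. In knockout 6 lay wholly below and none wholly above, beside 15% and 21.2%. There 2 were called lower and none higher, beside 2.42% and 3.9%. The sum in knockout control was 10790 CPM at the low Y-linked level and 18054 and 18544 CPM at the high level. The markers did not share this direction in the test of the Y-linked level within groups, described below. There 5 of the 10 had a positive and 5 a negative coefficient, and 1 was called higher, beside 0.193% of all genes. In bulk tissue, fewer cells of a type and less RNA per cell cannot be told apart, and the part of these differences in the results was not tested. Hepatocyte markers summed to 304 to 591 CPM, nearly all of it Apob, while Serpina3k and Mup20 were at or near 0.

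Sequences upstream of the genes are shown for the members whose changes stood out or whose counts cannot be kept apart. Promoters of 76 of the 95 members were found in RefSeq, build GRCm38.p6, and 18 motifs, chosen with the members' values known, were searched on both strands of the 250 bases before the start site. Cyp51, the gene of the cholesterol pathway with a lower level after IRI in both genotypes, was the only one of the 76 with TCACCTCAG, a site of the sterol-response type, which 0.2953% of 32851 promoters hold. Other searched forms of this type of site were held by 0 of the 76 members, so Cyp51 held none of them. The motifs were chosen with the members' values known, so that the rarity of the Cyp51 match is not a test. The motif of Cyp51 stands in capitals in bases -120 to -50 from its start:
Cyp51, chr5:4104747-4104817, minus strand: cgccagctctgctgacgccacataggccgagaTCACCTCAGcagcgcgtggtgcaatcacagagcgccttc
Cyp2c40, Cyp2c67, Cyp2c68 and Cyp2c69, called lower after IRI in wild type, neighbour each other on chromosome 19. All hold CAAAGTCCA, a motif of the kind bound by the nuclear receptor HNF4A, in capitals. It occurs in 11 of the 76 members (14.47%) and in 0.3835% of all promoters. The printed stretches are near copies of each other, and those of Cyp2c40 and Cyp2c69 are the same, so that these matches are not independent. The other members that hold it are Cyp2c65, Cyp2c70, Cyp3a11, Cyp3a16, Cyp3a41a, Cyp3a41b and Cyp8b1. Their counts were too low for a test of IRI, and a link of the motif to the change after IRI was not tested.
Cyp2c40, chr19:39812821-39812889, minus strand: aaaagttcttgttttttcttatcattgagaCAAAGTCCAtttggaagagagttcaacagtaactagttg
Cyp2c67, chr19:39649129-39649197, minus strand: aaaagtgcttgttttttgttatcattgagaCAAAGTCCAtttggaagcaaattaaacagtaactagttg
Cyp2c68, chr19:39741140-39741208, minus strand: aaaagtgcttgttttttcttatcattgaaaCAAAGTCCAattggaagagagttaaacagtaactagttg
Cyp2c69, chr19:39886806-39886874, minus strand: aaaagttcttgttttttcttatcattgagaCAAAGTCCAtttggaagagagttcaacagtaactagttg
Cyp2a4 and Cyp2a5 have nearly the same promoter, 98.39% identical over 249 bases, but differed in their values. Of the 4 bases that differ, 3 lie in the printed 117 bases, at -150 to -34 (Cyp2a4) and -151 to -35 (Cyp2a5), and are in capitals:
Cyp2a4, chr7:26307042-26307158, plus strand: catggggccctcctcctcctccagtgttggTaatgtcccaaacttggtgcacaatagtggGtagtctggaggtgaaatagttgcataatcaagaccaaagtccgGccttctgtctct
Cyp2a5, chr7:26835188-26835304, plus strand: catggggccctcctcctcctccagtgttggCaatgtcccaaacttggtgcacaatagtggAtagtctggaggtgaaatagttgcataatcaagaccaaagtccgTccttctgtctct
A match is a description of the letters and not a binding site.

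Near-identical copies limit what counts can tell. Of the 95 members, 25 shared over 20% of their exonic stretches of 50 bases with another gene, and 9 shared over 40%. Cyp2c40 shared 60.3%, most with Cyp2c69, and the longest open reading frames of these genes are 97.89% identical. Cyp4a12a shared 48.9% with Cyp4a12b, whose frame is 98.49% identical. Cyp4a32 shared 43.8%, most with Cyp4a10, and Cyp2a5 shared 37.0% with Cyp2a4. Values of each of these genes are uncertain, since reads could be split between copies. Exons of 16 members overlap another gene, by at most 13.5% of their length, and no source used here says whether counting used the strand.

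A few genes carried most of the P450 transcript. At 270.5 CPM per kilobase of exon averaged over the 12 libraries, Cyp4b1, which oxidises fatty acids and some toxins, had the highest level and ranked 31 of the 15686 protein-coding genes tested. It was followed on the same scale by Cyp2j5, an arachidonic acid epoxygenase of the proximal tubule, at 170.6, Cyp4a10 at 133, Cyp4a14 at 120.0, Cyp2a5 at 92.5, Cyp2e1 at 89.9, Cyp4a31 at 77.3, Cyp2a4 at 76.9, Cyp2j11 at 67.0 and Cyp2d26 at 52.3. Together the 10 made up 79.3% of the summed level per kilobase. Of the 95 members, 9 averaged over 100 CPM, 40 between 1 and 100 CPM, and 46 under 1 CPM.

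**Figure D1:**
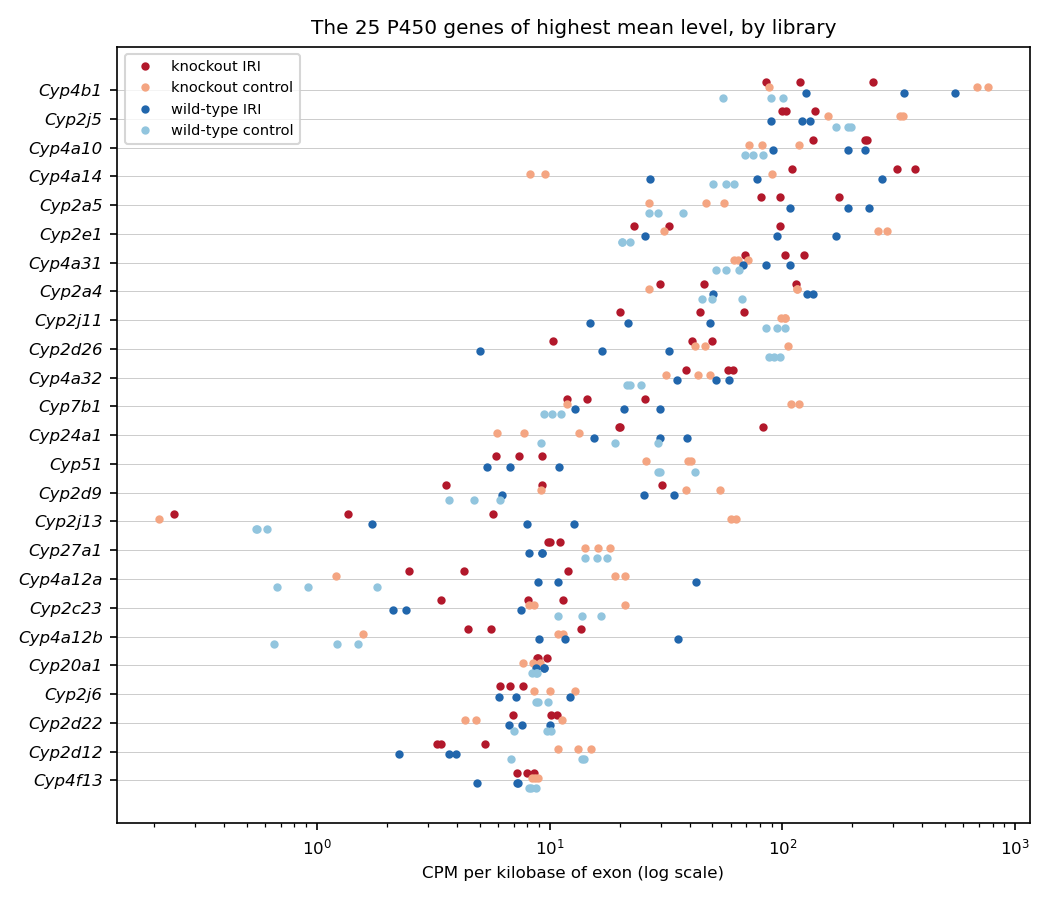
Level of the 25 members of highest mean, in CPM per kilobase of exon on a log scale, with 1 point for each library, coloured by group. Cyp4b1 and Cyp2j13 spread widely within the knockout control group, while Cyp20a1 lay within a narrow range in all 12 libraries.

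Summed over all members, P450 transcripts reached 3392, 3288 and 3223 CPM in knockout IRI kidneys, 2521, 5223 and 5501 CPM in knockout control kidneys, 3617, 3241 and 3839 CPM in wild-type IRI kidneys and 2383, 2455 and 2257 CPM in wild-type control kidneys. The sum was highest in the 2 knockout control libraries of high Y-linked level, and all 3 wild-type IRI libraries lay above all 3 wild-type control libraries. The makeup also differed between libraries. Cyp4b1 took 5.93% to 16.7% of the sum in knockout IRI, 7.86%, 29.5% and 31.4% in knockout control, 8.81% to 32.6% in wild-type IRI and 5.26% to 9.28% in wild-type control. Cyp4a14, a fatty acid hydroxylase, took 29.9% in knockout IRI replicate 3 and 0.391% in knockout control replicate 3. Cyp20a1, a member with no known substrate, was steady at 20.1, 22.3 and 20.4 CPM in knockout IRI kidneys, 20.8, 19.4 and 17.5 CPM in knockout control kidneys, 19.97, 21.7 and 21.6 CPM in wild-type IRI kidneys and 19.2, 19.95 and 20.2 CPM in wild-type control kidneys.

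**Figure D2:**
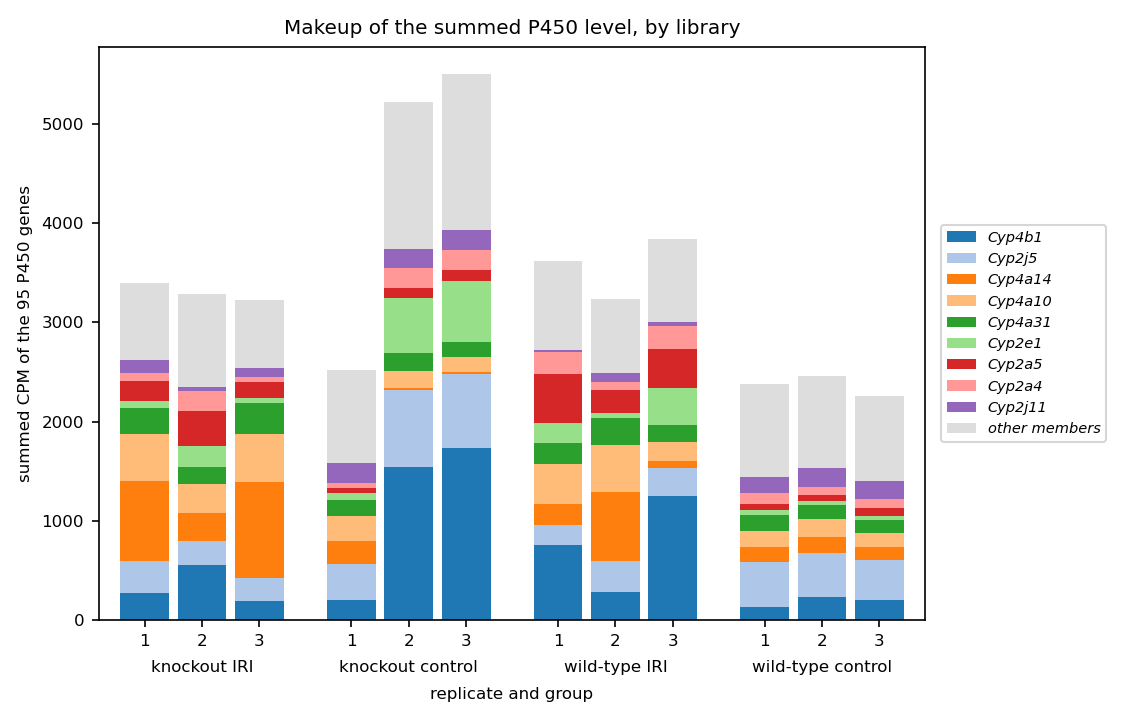
Summed CPM of the 95 members in each library, with 1 bar for each replicate and 1 colour for each of the 9 members of highest mean CPM; grey is the rest. The tallest bars, 5223 and 5501 CPM, are knockout control replicates 2 and 3, where Cyp4b1 and Cyp2e1 are wide and Cyp4a14 is barely visible.

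After IRI, 7 members fell and 1 rose in knockout, and 17 fell and 7 rose in wild type. The filter on low counts was passed by 72 of the 95 members. The 23 others reached at most 1.57 CPM in any library and were not tested. A member was called when edgeR's quasi-likelihood test gave a p under 0.05 after Benjamini-Hochberg adjustment across the 19218 genes of the fit. In knockout kidneys 1 member was called higher, where 3.9% of all genes tested were, and 7 lower, where 2.42% were. Over both directions 8 of 72 were called, beside 6.32% of all genes. In wild-type kidneys 7 were called higher, beside 13.1% of all genes, and 17 lower, beside 9.41%, so that 24 of 72 were called where 22.5% of all genes were. The median log2 fold change of the members was -0.48 in knockout and -0.11 in wild type, against 0.02 over all genes in each. Cyp51, Cyp27a1, Cyp2d12 and Cyp2c67 were called lower and Cyp2a5 higher in both genotypes. In knockout, 10 members had all IRI libraries above all control libraries, beside 21.2% of all genes, and 21 below, beside 15%. In wild type 14 were above, beside 21.2%, and 23 below, beside 19.9%. Every IRI library lay below every control library in both genotypes for 15 members, beside 9.25% of all genes tested, and above it for 4, beside 12.4%. These 4 were Cyp2a5, Cyp2b10, Cyp4a10 and Cyp4a30b.

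With knockout IRI replicates 1 and 2 left out, which leaves 1 library assumed to vary like the other groups, 0 members were called in knockout. The count of lower members in knockout was 1 without knockout IRI replicates 2 or 3 or knockout control replicate 3, 2 without knockout control replicate 2, 4 without wild-type control replicates 2 or 3, and 13 without wild-type IRI replicate 3. The count of higher members there was 6 without knockout control replicate 1, 5 without wild-type IRI replicate 3, 2 without wild-type IRI replicate 2, and 0 without wild-type control replicates 2 or 3, knockout control replicates 2 or 3, or any 1 knockout IRI library. In wild type the count of higher members was 4 without wild-type IRI replicate 1, 11 without wild-type IRI replicate 2 and 12 without knockout control replicate 1. The count of lower members there was 9 without wild-type control replicates 2 or 3 and 8 without wild-type IRI replicate 1. With the log2 Y-linked level as a covariate, 3 members were called higher and 5 lower in knockout, and 3 higher and 4 lower in wild type. With the linear level, 5 were called higher and 16 lower in knockout, and 8 higher and 7 lower in wild type, where the larger count is then the higher one. Here and below, shares of all genes called were counted in the main fit only. Whether counts over all genes moved alike under the alternatives is therefore not shown.

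**Figure D3:**
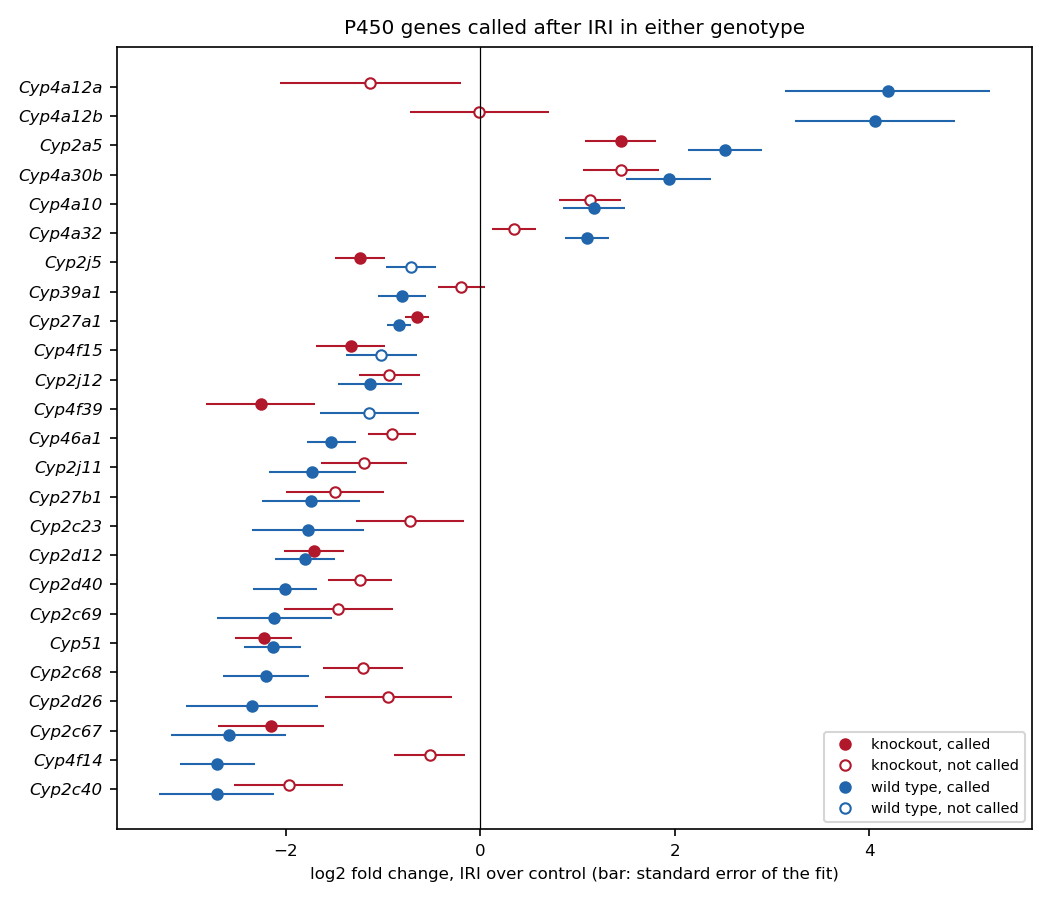
Log2 fold change of IRI over control in knockout (red) and wild type (blue) for 25 members called in either genotype, with the standard error of the fit as bars and filled points for calls. Cyp2b10 and Cyp2b19, with a group at 0 counts, are not drawn; Cyp51 and Cyp2d12 lie at nearly the same place in both genotypes, while Cyp4a12a and Cyp4f14 lie apart.

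Of the 4 vitamin D genes, 1 was called lower in knockout and 2 in wild type after IRI, and none higher, beside 2.42% and 9.41% of all genes called lower. Cyp27b1 makes the active hormone calcitriol from its precursor in the proximal tubule (ENSMUSG00000006724, chr10:127048250-127053006, build mm10). It had 2.17, 0.578 and 2.75 CPM in knockout IRI kidneys, 6.68, 5.65 and 2.97 CPM in knockout control kidneys, 1.16, 2.27 and 2.43 CPM in wild-type IRI kidneys and 7.92, 4.83 and 6.86 CPM in wild-type control kidneys. All IRI libraries were below all control libraries of their genotype, and knockout IRI replicate 2 was the lowest. Cyp27b1 fell in wild type (log2 fold change -1.74, SE 0.51, adjusted p = 0.0333 in edgeR), while in knockout the log2 fold change was -1.49 (SE 0.51, adjusted p = 0.106 in edgeR). Cyp24a1, which inactivates calcitriol and its precursor (ENSMUSG00000038567, chr2:170482708-170497145), had 71.1, 295 and 70.4 CPM in knockout IRI kidneys, 27.7, 21.1 and 47.5 CPM in knockout control kidneys, 139, 106 and 55.4 CPM in wild-type IRI kidneys and 105, 68.0 and 32.7 CPM in wild-type control kidneys. In knockout every IRI library was above every control library, with the highest value in replicate 2, one of the adrenal libraries, and in wild type the groups overlapped. Its log2 fold change was 2.18 (SE 0.63, adjusted p = 0.0645 in edgeR) in knockout and 0.55 (SE 0.61, adjusted p = 0.525 in edgeR) in wild type, so that neither passed. In knockout it passed without wild-type IRI replicate 3 (adjusted p = 0.0422 in edgeR) and with DESeq2 or the linear Y-linked level as a covariate (adjusted p from 0.00386 to 0.0431). It was 1.12 (adjusted p = 0.314) without knockout IRI replicate 2 and 1.11 (adjusted p = 0.587) without both adrenal libraries.

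Cyp27a1, a mitochondrial sterol hydroxylase that can also hydroxylate vitamin D (ENSMUSG00000026170, chr1:74713574-74737892), had 24.2, 21.7 and 21.3 CPM in knockout IRI kidneys, 35.2, 31.0 and 39.4 CPM in knockout control kidneys, 17.6, 20.2 and 20.2 CPM in wild-type IRI kidneys and 30.7, 34.8 and 38.1 CPM in wild-type control kidneys. The groups did not overlap in either genotype, and values within a group were close. It fell in knockout (log2 fold change -0.65, SE 0.12, adjusted p = 0.0141 in edgeR) and in wild type (log2 fold change -0.84, SE 0.12, adjusted p = 0.00278 in edgeR). Cyp2r1, which makes the precursor in the liver, was at 2.50 to 2.83 CPM in knockout IRI and 2.12 to 2.67 CPM in knockout control, and at 2.45 to 2.81 CPM for wild-type IRI and 2.23 to 2.52 CPM in wild-type control. Its groups overlapped, with log2 fold changes of 0.14 and 0.12. The wild-type call of Cyp27a1 held under all alternatives run. Its knockout call ended without knockout IRI replicates 2 or 3 or knockout control replicate 3 (adjusted p from 0.0559 to 0.0738 in edgeR) and with both adrenal libraries left out (adjusted p = 0.203). The call of Cyp27b1 ended without wild-type IRI replicates 1 or 3 or wild-type control replicates 1, 2 or 3 (adjusted p from 0.0516 to 0.105 in edgeR) and with the log2 Y-linked level as a covariate or the linear Y-linked level as a covariate (adjusted p from 0.272 to 0.47). Its log2 fold change was then -0.86 (adjusted p = 0.47) with the log2 and -1.13 (adjusted p = 0.272) with the linear Y-linked level. The Cyp27b1 call also ended with a block for the replicate number (adjusted p = 0.0633 in edgeR).

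**Figure D4:**
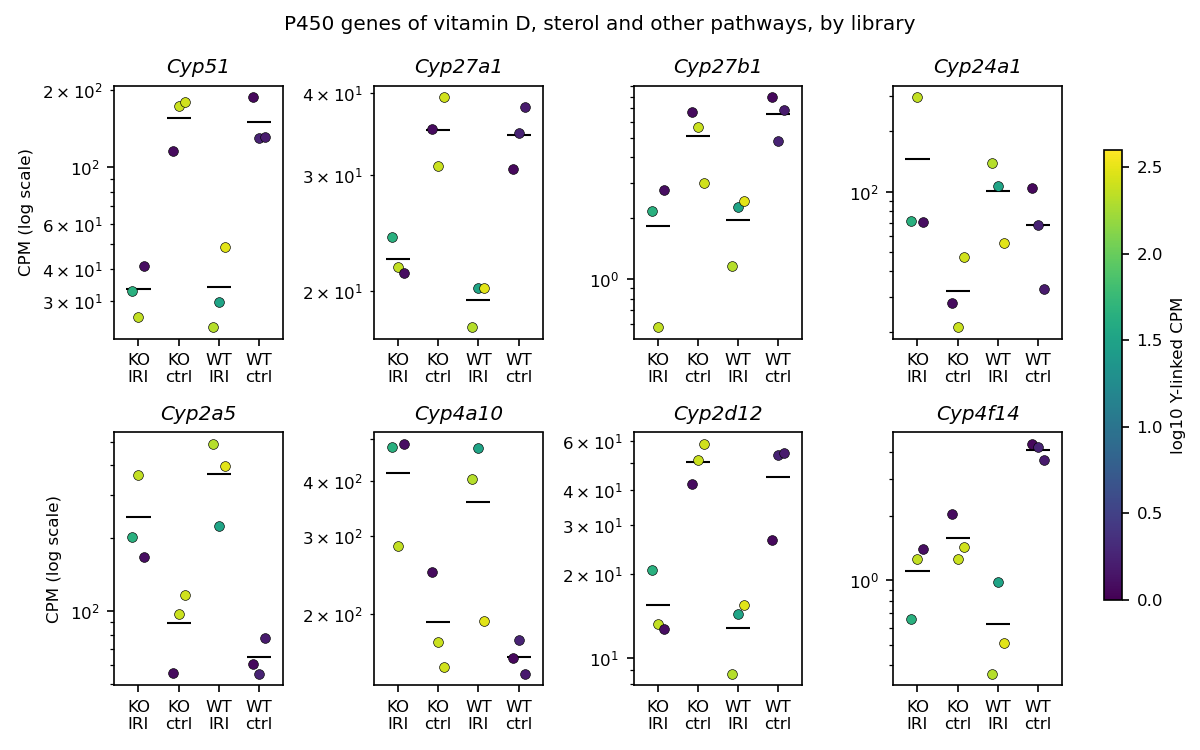
CPM on a log scale for 8 members, with 1 point for each library, coloured by the log10 of its Y-linked CPM, and a line at each group's mean. For Cyp51, Cyp27a1 and Cyp2d12 all IRI points lie below the control points of their genotype, and those of Cyp51 lie between 23.7 and 48.4 CPM.

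Among the sterol and bile acid genes, 1 of the 4 tested was called lower in knockout and 3 in wild type, beside 2.42% and 9.41% of all genes. Cyp51, the lanosterol demethylase of cholesterol synthesis (ENSMUSG00000001467, chr5:4081145-4104746), had 32.7, 26.0 and 41.1 CPM in knockout IRI kidneys, 115, 173 and 179.5 CPM in knockout control kidneys, 23.7, 29.7 and 48.4 CPM in wild-type IRI kidneys and 186, 129.5 and 131 CPM in wild-type control kidneys. The highest IRI library was below the lowest control library in both genotypes. It averaged 33.3 ± 7.60 CPM in knockout IRI and 156 ± 35.6 CPM in knockout control, and 33.9 ± 12.9 CPM for wild-type IRI and 149 ± 32.4 CPM for wild-type control (SD, n = 3 each). It fell in knockout (log2 fold change -2.23, SE 0.29, adjusted p = 0.00423 in edgeR) and in wild type (log2 fold change -2.14, SE 0.29, adjusted p = 0.00226 in edgeR). Its coefficient on the Y-linked level was 0.02 (SE 0.04, adjusted p = 0.95 in edgeR). The wild-type call held under all alternatives run, and the knockout call ended only with both adrenal libraries left out, at a log2 fold change of -1.94 (adjusted p = 0.142).

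Cyp46a1, a cholesterol hydroxylase known from the brain, had 2.94, 2.31 and 2.597 CPM in knockout IRI kidneys, 4.97, 5.31 and 4.46 CPM in knockout control kidneys, 1.503, 3.04 and 1.57 CPM in wild-type IRI kidneys and 5.32, 6.18 and 6.23 CPM in wild-type control kidneys. The IRI libraries were below the control libraries in both genotypes, and the gene was called lower in wild type (log2 fold change -1.53, SE 0.25, adjusted p = 0.00409 in edgeR), with -0.91 (SE 0.25, adjusted p = 0.0538 in edgeR) in knockout. That knockout value passed under 10 of the alternatives. Cyp39a1, a hydroxylase of oxysterols, was called lower in wild type only (log2 fold change -0.81, SE 0.24, adjusted p = 0.0372 in edgeR), at 6.18, 10.5 and 5.96 CPM in wild-type IRI kidneys, against 13.5, 14.0 and 12.1 CPM in wild-type control kidneys. The test of that difference between genotypes gave 0.61 (SE 0.34, adjusted p = 0.666 in edgeR). The wild-type call of Cyp46a1 ended with the log2 Y-linked level as a covariate (adjusted p = 0.0774). That of Cyp39a1 ended without knockout control replicates 2 or 3, wild-type IRI replicates 1 or 3 or wild-type control replicates 1, 2 or 3 (adjusted p from 0.051 to 0.118 in edgeR) and with a fit restricted to the 2 groups, the log2 Y-linked level as a covariate or the linear Y-linked level as a covariate (adjusted p from 0.0854 to 0.495). The Cyp39a1 value was -0.35 (adjusted p = 0.495) with the log2 and -0.41 (adjusted p = 0.182) with the linear Y-linked level. With a block for the replicate number the Cyp39a1 call ended too (adjusted p = 0.0685 in edgeR). Cyp7b1, which clears oxysterols, is described with the Y-linked pattern, and Cyp7a1 and Cyp8b1, the bile acid genes of the liver, did not pass the filter on low counts.

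The Cyp4 genes, whose enzymes hydroxylate fatty acids at or near the end of the chain, moved in both directions. Of the 18 tested, none was called higher and 2 lower in knockout, and 5 higher and 1 lower in wild type. Of all genes, 3.9% were called higher and 2.42% lower in knockout, and 13.1% and 9.41% in wild type. Cyp4a10, a target of the fatty acid receptor PPARα, had 479, 285 and 486 CPM in knockout IRI kidneys, 249, 172 and 151 CPM in knockout control kidneys, 404, 477 and 192 CPM in wild-type IRI kidneys and 158, 174 and 146 CPM in wild-type control kidneys. Every IRI library was above every control library of its genotype. It rose in wild type (log2 fold change 1.17, SE 0.32, adjusted p = 0.0275 in edgeR), with the near value of 1.13 (SE 0.32, adjusted p = 0.061 in edgeR) in knockout. The knockout value passed without knockout control replicate 1 or wild-type IRI replicates 2 or 3 (adjusted p from 0.0146 to 0.0476 in edgeR) and with DESeq2, the log2 Y-linked level as a covariate or the linear Y-linked level as a covariate (adjusted p from 0.0118 to 0.0422). Cyp4a32, its close copy, rose in wild type (log2 fold change 1.10, SE 0.23, adjusted p = 0.00998 in edgeR) at 79.8, 90.4 and 54.3 CPM in wild-type IRI kidneys, against 34.0, 38.0 and 32.9 CPM in wild-type control kidneys, with 0.35 (SE 0.23, adjusted p = 0.398 in edgeR) in knockout. Cyp4a31 had log2 fold changes of 0.58 (SE 0.21, adjusted p = 0.131 in edgeR) in knockout and 0.58 (SE 0.21, adjusted p = 0.0699 in edgeR) in wild type. In knockout it was 0.35 (adjusted p = 0.463) without knockout IRI replicate 3 and 0.88 (adjusted p = 0.194) without the adrenal libraries. In wild type it passed without knockout IRI replicate 2 or wild-type IRI replicate 3 (adjusted p from 0.0379 to 0.0404 in edgeR) and with DESeq2 or the linear Y-linked level as a covariate (adjusted p from 0.0326 to 0.0462). There it was 0.91 (adjusted p = 0.104) with the log2 and 0.87 (adjusted p = 0.0326) with the linear Y-linked level, and 0.39 (adjusted p = 0.214) without the intermediate libraries. At low levels of 0.264, 0.224 and 0.17 CPM in wild-type IRI kidneys, against 0.0203, 0.0676 and 0.0771 CPM in wild-type control kidneys, Cyp4a30b rose in wild type (log2 fold change 1.94, SE 0.44, adjusted p = 0.0133 in edgeR).

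Cyp4a14, of the same family, spanned a wide range. It had 806, 286 and 965 CPM in knockout IRI kidneys, 234, 24.8 and 21.5 CPM in knockout control kidneys, 203, 695 and 70.1 CPM in wild-type IRI kidneys and 149, 160.5 and 131 CPM in wild-type control kidneys. In knockout every IRI library was above every control library, and the lowest values belonged to control libraries of high Y-linked level. Its log2 fold change was 2.88 (SE 1.006, adjusted p = 0.115 in edgeR) in knockout and 1.14 (SE 0.95, adjusted p = 0.396 in edgeR) in wild type. In knockout it was 4.88 (adjusted p = 0.0156) without knockout control replicate 1, and 3.43 (adjusted p = 0.0086) with the log2 Y-linked level as a covariate. Within the high level of Y-linked transcripts, knockout IRI replicate 2 had 286 CPM, against a mean of 23.2 CPM in knockout control replicates 2 and 3. Within the low level, knockout IRI replicate 3 had 965 CPM, against 234 CPM in knockout control replicate 1.

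The near-identical Cyp4a12a and Cyp4a12b, which in mice make a vasoconstrictor eicosanoid from arachidonic acid and are driven by androgen, rose in wild type. Cyp4a12a had 10.3, 29.1 and 6.04 CPM in knockout IRI kidneys, 2.93, 50.9 and 46.1 CPM in knockout control kidneys, 103, 21.6 and 26.2 CPM in wild-type IRI kidneys and 1.62, 4.41 and 2.22 CPM in wild-type control kidneys. Every wild-type IRI library was above every wild-type control library, and in knockout the groups overlapped. The wild-type log2 fold changes were 4.19 (SE 1.06, adjusted p = 0.0201 in edgeR) for Cyp4a12a and 4.06 (SE 0.82, adjusted p = 0.00883 in edgeR) for Cyp4a12b, against -1.13 and -0.01 in knockout. With the log2 Y-linked level as a covariate the wild-type values were 1.44 (adjusted p = 0.34) and 2.10 (adjusted p = 0.123), and with the linear level 2.40 (adjusted p = 0.101) and 2.70 (adjusted p = 0.0321). Of the Cyp4a calls, those of Cyp4a10, Cyp4a12a, Cyp4a12b, Cyp4a30b and Cyp4a32 in wild type each ended under at least 1 of the following: without wild-type IRI replicates 1 or 2 or wild-type control replicates 1, 2 or 3 (adjusted p from 0.0512 to 0.093 in edgeR) and with a fit restricted to the 2 groups, both libraries of intermediate Y-linked level left out, limma-voom, the log2 Y-linked level as a covariate or the linear Y-linked level as a covariate (adjusted p from 0.062 to 0.34). Of these 5, Cyp4a10 alone kept its call with that log2 covariate, at 1.76 (adjusted p = 0.0364).

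The called Cyp4f genes were all lower. Cyp4f14, which inactivates leukotriene B4 in mice (ENSMUSG00000024292, chr17:32905070-32917342), had 0.662, 1.26 and 1.41 CPM in knockout IRI kidneys, 2.05, 1.26 and 1.44 CPM in knockout control kidneys, 0.366, 0.988 and 0.511 CPM in wild-type IRI kidneys and 4.37, 4.21 and 3.66 CPM in wild-type control kidneys. The wild-type control libraries stood above all others. It fell in wild type (log2 fold change -2.70, SE 0.39, adjusted p = 0.00252 in edgeR), a call that held under all alternatives run. In knockout the log2 fold change was -0.52 (SE 0.36, adjusted p = 0.444 in edgeR), and the difference between genotypes was 2.18 (SE 0.52, adjusted p = 0.666 in edgeR). In knockout, Cyp4f15 was called lower (log2 fold change -1.33, SE 0.35, adjusted p = 0.0496 in edgeR) at 0.431, 0.445 and 0.396 CPM in knockout IRI kidneys, against 1.23, 0.875 and 1.12 CPM in knockout control kidneys. Cyp4f39, of the skin lipid barrier, was called lower there too (log2 fold change -2.26, SE 0.56, adjusted p = 0.041 in edgeR) at 0.077, 0.0296 and 0.0495 CPM in knockout IRI kidneys, against 0.245, 0.338 and 0.19 CPM in knockout control kidneys. Both knockout calls ended with a block for the replicate number (adjusted p = 0.0731 for Cyp4f15 and 0.0808 for Cyp4f39 in edgeR). The call of Cyp4f15 ended without knockout IRI replicates 1, 2 or 3, knockout control replicates 1, 2 or 3, wild-type IRI replicate 1 or wild-type control replicates 2 or 3 (adjusted p from 0.054 to 0.156 in edgeR) and with no filter on low counts, the log2 Y-linked level as a covariate, both adrenal libraries left out or both libraries of intermediate Y-linked level left out (adjusted p from 0.0536 to 0.429). That of Cyp4f39 ended without knockout IRI replicates 1, 2 or 3, knockout control replicates 1, 2 or 3 or wild-type control replicates 1, 2 or 3 (adjusted p from 0.0516 to 0.178 in edgeR) and with the log2 Y-linked level as a covariate or both adrenal libraries left out (adjusted p from 0.0534 to 0.432).

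The Cyp2c and Cyp2j genes, many of whose enzymes form epoxides of arachidonic acid, were called only lower after IRI. Of 19 tested, 2 were called lower in knockout and 7 in wild type, and none higher in either, beside 2.42% of all genes lower in knockout and 9.41% in wild type. The shares of all genes called higher were 3.9% and 13.1%. Their median log2 fold change was -1.12 in knockout and -0.71 in wild type. Cyp2j5, the P450 gene of the highest level in wild-type control kidneys, had 324, 244 and 233 CPM in knockout IRI kidneys, 368, 773 and 748 CPM in knockout control kidneys, 209, 307 and 284 CPM in wild-type IRI kidneys and 461, 451 and 398 CPM in wild-type control kidneys. Its IRI libraries were below the control libraries in both genotypes, and the knockout control libraries of high Y-linked level were the highest. It fell in knockout (log2 fold change -1.24, SE 0.26, adjusted p = 0.0223 in edgeR), with -0.71 (SE 0.26, adjusted p = 0.0682 in edgeR) in wild type. The wild-type value passed without knockout control replicate 1 or wild-type IRI replicate 2 (adjusted p from 0.0183 to 0.0498 in edgeR) and with DESeq2 or both libraries of intermediate Y-linked level left out (adjusted p from 0.0362 to 0.0484), and was -1.17 (adjusted p = 0.0874) with the log2 Y-linked level. Cyp2j11 had 131, 38.4 and 84.5 CPM in knockout IRI kidneys, 197, 189.7 and 196 CPM in knockout control kidneys, 28.5, 93.4 and 41.6 CPM in wild-type IRI kidneys and 164, 196 and 181 CPM in wild-type control kidneys. Control libraries lay close together and all IRI libraries were lower. Cyp2j11 fell in wild type (log2 fold change -1.73, SE 0.45, adjusted p = 0.0225 in edgeR), with -1.20 (SE 0.44, adjusted p = 0.134 in edgeR) in knockout. Cyp2j12, at 0.163 to 0.17 CPM for wild-type IRI and 0.284 to 0.501 CPM in wild-type control, was called lower in wild type (log2 fold change -1.13, SE 0.33, adjusted p = 0.0325 in edgeR). Cyp2c23, known as Cyp2c44 and as an epoxygenase of the kidney, fell in wild type (log2 fold change -1.77, SE 0.57, adjusted p = 0.047 in edgeR), at 4.57, 16.2 and 5.23 CPM in wild-type IRI kidneys, against 23.4, 35.8 and 29.7 CPM in wild-type control kidneys. With the log2 Y-linked level as a covariate its value was -0.73 (adjusted p = 0.527), and with the linear level -0.88 (adjusted p = 0.131).

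The 4 neighbouring Cyp2c genes of the printed promoters were low in all libraries. Cyp2c68 had 0.724, 0.385 and 0.346 CPM in knockout IRI kidneys, 1.73, 0.951 and 0.728 CPM in knockout control kidneys, 0.183, 0.373 and 0.255 CPM in wild-type IRI kidneys and 0.893, 1.57 and 1.31 CPM in wild-type control kidneys. In both genotypes all IRI libraries were below all control libraries for each of the 4. In knockout this was nearly a tie for Cyp2c40 and Cyp2c68, where the order came from the scaling of the libraries. IRI replicate 1 and control replicate 3 had 15 and 15 counts of Cyp2c40, and 47 and 46 of Cyp2c68. Wild-type log2 fold changes were -2.71 (SE 0.59, adjusted p = 0.0118 in edgeR) for Cyp2c40, -2.59 (SE 0.59, adjusted p = 0.0137 in edgeR) for Cyp2c67, -2.21 (SE 0.44, adjusted p = 0.00832 in edgeR) for Cyp2c68 and -2.12 (SE 0.59, adjusted p = 0.0293 in edgeR) for Cyp2c69. In knockout Cyp2c67 was called lower (log2 fold change -2.15, SE 0.55, adjusted p = 0.0432 in edgeR), and the others had log2 fold changes of -1.97, -1.21 and -1.46. Cyp2c40 passed in knockout without wild-type IRI replicates 2 or 3 (adjusted p from 0.0408 to 0.0431 in edgeR) and with DESeq2, the linear Y-linked level as a covariate or both libraries of intermediate Y-linked level left out (adjusted p from 0.0145 to 0.0292). Cyp2c68 passed with DESeq2, the linear Y-linked level as a covariate or both libraries of intermediate Y-linked level left out (adjusted p from 0.0327 to 0.0484), and was -0.77 (adjusted p = 0.282) without knockout control replicate 1. Cyp2c69 was -2.33 (adjusted p = 0.0497) without knockout IRI replicate 1, -2.36 (adjusted p = 0.00529) without the intermediate libraries and -2.34 (adjusted p = 0.348) without the adrenal libraries. These genes share reads, so that the 4 calls are not independent. All wild-type calls of the Cyp2c and Cyp2j genes, Cyp2c23, Cyp2c40, Cyp2c67, Cyp2c68, Cyp2c69, Cyp2j11 and Cyp2j12, ended under 1 or more of these: without knockout IRI replicates 1 or 3, knockout control replicates 2 or 3, wild-type IRI replicates 1 or 3 or wild-type control replicates 1, 2 or 3 (adjusted p from 0.0511 to 0.137 in edgeR) and with no filter on low counts, a fit restricted to the 2 groups, the log2 Y-linked level as a covariate, the linear Y-linked level as a covariate, both adrenal libraries left out, DESeq2 or both libraries of intermediate Y-linked level left out (adjusted p from 0.0502 to 0.527). The knockout calls of Cyp2j5 and Cyp2c67 ended without knockout IRI replicates 2 or 3, knockout control replicates 1, 2 or 3, wild-type IRI replicate 1 or wild-type control replicates 1, 2 or 3 (adjusted p from 0.0552 to 0.163 in edgeR) and with a fit restricted to the 2 groups, both adrenal libraries left out or the log2 Y-linked level as a covariate (adjusted p from 0.0502 to 0.251). Both ended under several of these. A block for the replicate number ended the wild-type calls of Cyp2c23 and Cyp2j12 (adjusted p = 0.0746 and 0.0527 in edgeR). It also ended the knockout calls of Cyp2j5 and Cyp2c67 (adjusted p = 0.0601 and 0.0789 in edgeR).

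Among the drug and steroid metabolising Cyp2a, Cyp2b, Cyp2d, Cyp2e, Cyp2f, Cyp2g and Cyp3a genes, 1 of 18 tested was called higher and 1 lower in knockout, and 2 higher and 4 lower in wild type. This stands beside 3.9% and 2.42% of all genes in knockout and 13.1% and 9.41% in wild type. Cyp2a5, a coumarin and nicotine hydroxylase (ENSMUSG00000005547, chr7:26835305-26843548), had 202, 362 and 167 CPM in knockout IRI kidneys, 55.6, 97.3 and 116 CPM in knockout control kidneys, 489, 223 and 395 CPM in wild-type IRI kidneys and 60.7, 55.3 and 77.3 CPM in wild-type control kidneys. Every IRI library exceeded every control library, in both genotypes. It rose in knockout (log2 fold change 1.44, SE 0.37, adjusted p = 0.0432 in edgeR) and in wild type (log2 fold change 2.52, SE 0.38, adjusted p = 0.00308 in edgeR). The wild-type call held under all alternatives run, at 1.58 (adjusted p = 0.0345) with the log2 Y-linked level as a covariate. The knockout call ended without knockout IRI replicates 1, 2 or 3, knockout control replicates 1, 2 or 3 or wild-type control replicates 1, 2 or 3 (adjusted p from 0.0554 to 0.187 in edgeR) and with a fit restricted to the 2 groups or both adrenal libraries left out (adjusted p from 0.0612 to 0.517). It stood at a log2 fold change of 0.88 without the adrenal libraries. The knockout call of Cyp2a5 also ended with a block for the replicate number (adjusted p = 0.0896 in edgeR). Cyp2a4, a steroid hydroxylase with nearly the same promoter, had 79.8, 199 and 51.9 CPM in knockout IRI kidneys, 46.5, 200.3 and 202 CPM in knockout control kidneys, 221, 87.1 and 235 CPM in wild-type IRI kidneys and 116, 78.7 and 86.7 CPM in wild-type control kidneys. Its IRI and control libraries overlapped in both genotypes, with log2 fold changes of -0.44 in knockout and 0.95 in wild type. Within the high Y-linked level, Cyp2a5 had 362 CPM in knockout IRI replicate 2 against a mean of 107 CPM in knockout control replicates 2 and 3, and Cyp2a4 had 199 CPM against 201 CPM.

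Cyp2d12 (ENSMUSG00000096852, chr15:82555072-82560403), of the mouse family related to human CYP2D6, had 20.6, 13.2 and 12.7 CPM in knockout IRI kidneys, 42.0, 51.3 and 58.6 CPM in knockout control kidneys, 8.76, 14.3 and 15.4 CPM in wild-type IRI kidneys and 26.5, 53.4 and 54.3 CPM in wild-type control kidneys. Every IRI library lay below every control library of its genotype. It fell in knockout (log2 fold change -1.71, SE 0.31, adjusted p = 0.0122 in edgeR) and in wild type (log2 fold change -1.80, SE 0.31, adjusted p = 0.00483 in edgeR). The wild-type call held under all alternatives run. In knockout the call ended without knockout IRI replicates 2 or 3 or knockout control replicates 2 or 3 (adjusted p from 0.0528 to 0.0652 in edgeR) and with both adrenal libraries left out (adjusted p = 0.157). Cyp2d26, the most abundant Cyp2d gene, fell in wild type (log2 fold change -2.35, SE 0.68, adjusted p = 0.0322 in edgeR) at 9.04, 58.1 and 30.2 CPM in wild-type IRI kidneys, against 156, 175 and 165 CPM in wild-type control kidneys. Its knockout libraries overlapped, at 89.4, 18.5 and 73.6 CPM in knockout IRI kidneys, against 190.2, 75.9 and 83.2 CPM in knockout control kidneys. Cyp2d40 fell in wild type (log2 fold change -2.01, SE 0.33, adjusted p = 0.00405 in edgeR) at levels of at most 0.372 CPM, with -1.24 (SE 0.33, adjusted p = 0.0505 in edgeR) in knockout. The call of Cyp2d40 ended with the log2 Y-linked level as a covariate (adjusted p = 0.0861). That of Cyp2d26 ended without wild-type IRI replicates 1 or 3 or wild-type control replicates 1, 2 or 3 (adjusted p from 0.0671 to 0.0805 in edgeR) and with a fit restricted to the 2 groups, the log2 Y-linked level as a covariate or the linear Y-linked level as a covariate (adjusted p from 0.0578 to 0.402). The value of Cyp2d26 was -1.21 (adjusted p = 0.402) with the log2 and -1.42 (adjusted p = 0.185) with the linear Y-linked level. Its call ended with a block for the replicate number as well (adjusted p = 0.0669 in edgeR).

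A pair of Cyp2b genes had a group at 0. Cyp2b10, a target of the receptor CAR that responds to phenobarbital, had 186 counts in the 3 wild-type IRI libraries and 0 in the 3 wild-type control libraries. The 186 counts fell as 124, 22 and 40 in replicates 1 to 3, a spread that the fold below leaves out. As the limit that a count of 0 allows, 3 counts over the control group were taken, and the 186 pooled counts as exact. On that basis Cyp2b10 was at least 66.3-fold higher after IRI (adjusted p = 0.00607 in edgeR). In knockout it was found in both conditions, at 0.832, 0.489 and 0.445 CPM in knockout IRI kidneys, against 0.307, 0.046 and 0.332 CPM in knockout control kidneys, and every IRI library was the higher. The change in knockout did not pass (log2 fold change 1.37, SE 0.77, adjusted p = 0.339 in edgeR). Cyp2b19, a keratinocyte gene, had 0 counts in wild-type IRI and 22 in wild-type control, as 10, 1 and 11 counts in replicates 1 to 3. Control replicate 2 was thus hardly apart from 0. With the same limit, and the 22 pooled counts taken as exact, Cyp2b19 was at least 6.85-fold lower (adjusted p = 0.0236 in edgeR). The spread of the control counts is not in that fold. The call of Cyp2b10 ended with the log2 Y-linked level as a covariate (adjusted p = 0.0645). That of Cyp2b19 ended without wild-type IRI replicate 1 or wild-type control replicates 1 or 3 (adjusted p from 0.0592 to 0.0702 in edgeR) and with the log2 Y-linked level as a covariate or the linear Y-linked level as a covariate (adjusted p from 0.101 to 0.164). Of the Cyp3a genes, known as the main drug oxidases of liver and gut, Cyp3a13 and Cyp3a44 were the only ones to pass the filter on low counts, and neither was called in any comparison.

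The dioxin-responsive Cyp1 genes and the retinoic acid degrading Cyp26 genes had no call after IRI. Cyp1a1 had 0.216, 0.0593 and 0.297 CPM in knockout IRI kidneys, 0.475, 0.292 and 0.364 CPM in knockout control kidneys, 0.223, 0.317 and 0.0213 CPM in wild-type IRI kidneys and 0.487, 0.845 and 0.81 CPM in wild-type control kidneys. Its IRI libraries were below the control libraries in wild type, with a log2 fold change of -1.90 (SE 0.64, adjusted p = 0.0526 in edgeR). It passed there without knockout IRI replicate 2 or wild-type IRI replicate 2 (adjusted p from 0.0251 to 0.0422 in edgeR) and with DESeq2, limma-voom or both libraries of intermediate Y-linked level left out (adjusted p from 0.0189 to 0.0398). It was -1.02 (adjusted p = 0.512) with the log2 and -1.11 (adjusted p = 0.289) with the linear Y-linked level as a covariate. Cyp1b1, a hydroxylase of oestrogen, had 41.6, 40.5 and 41.7 CPM in knockout IRI kidneys, 38.1, 29.7 and 26.7 CPM in knockout control kidneys, 39.8, 41.4 and 41.0 CPM in wild-type IRI kidneys and 37.0, 40.7 and 43.0 CPM in wild-type control kidneys. Its knockout log2 fold change was 0.39 (SE 0.12, adjusted p = 0.086 in edgeR), while the wild-type libraries overlapped. It passed in knockout without knockout control replicate 1 (adjusted p = 0.0127 in edgeR). Cyp26b1 varied within groups, from 1.55 to 46.4 CPM in knockout control and from 1.83 to 26.1 CPM in wild-type control, and all comparisons of it overlapped. Of Cyp20a1, Cyp2s1, Cyp2t4 and Cyp2u1, the tested genes outside the groups above, none was called. Cyp2s1 had 22.3, 19.6 and 22.5 CPM in knockout IRI kidneys, against 12.2, 14.1 and 12.9 CPM in knockout control kidneys, without overlap (log2 fold change 0.72, SE 0.31, adjusted p = 0.196 in edgeR), and overlapped in wild type.

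Within groups, several members followed the level of Y-linked transcripts. This was tested by the coefficient of the log2 Y-linked level in a fit with a coefficient for each group, which gives the log2 change for each doubling of that level. It called 4 of 72 members higher and 0 lower at a threshold that 0.193% of all genes passed upwards and 0.0468% downwards. Of the 72 members, 19 had an unadjusted p under 0.05, and the share of all genes with such a p was not counted. The 4 were Cyp2j13, Cyp2d9, Cyp2a4 and Cyp2e1. The groups with a wide span of Y-linked level were knockout IRI, knockout control and wild-type IRI, while the wild-type control libraries spanned only 1.14 to 1.79 CPM. The count of higher members was 2 without knockout control replicates 1 or 2, and 1 without knockout control replicate 3 or knockout IRI replicate 2.

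Cyp2j13 (ENSMUSG00000028571, chr4:96027534-96077546), of the epoxygenase family and known as male-biased in mouse kidney, had 6.36, 26.7 and 1.14 CPM in knockout IRI kidneys, 0.981, 283 and 298 CPM in knockout control kidneys, 37.4, 8.05 and 59.7 CPM in wild-type IRI kidneys and 2.58, 2.602 and 2.85 CPM in wild-type control kidneys. The 2 knockout control libraries of high Y-linked level had a mean of 290.4 CPM, 296-fold above knockout control replicate 1, of low level. After IRI the libraries of high level, knockout IRI replicate 2 and wild-type IRI replicates 1 and 3, lay between 26.7 and 59.7 CPM. Its coefficient was 0.86 (SE 0.09, adjusted p = 0.00399 in edgeR), called under all alternatives run. Within the high Y-linked level, knockout IRI replicate 2 had 26.7 CPM against that mean, a log2 ratio of -3.45 from 1 library.

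Cyp2e1, which oxidises ethanol and solvents, had 70.0, 210.2 and 49.5 CPM in knockout IRI kidneys, 66.7, 558 and 609 CPM in knockout control kidneys, 205, 55.4 and 368 CPM in wild-type IRI kidneys and 47.9, 44.0 and 44.3 CPM in wild-type control kidneys. Its libraries of high Y-linked level lay above those of low and intermediate level in each group that holds both. The coefficient was 0.36 (SE 0.06, adjusted p = 0.0498 in edgeR). Cyp2d9, a testosterone hydroxylase known as male-specific in mouse liver, had 24.7, 80.9 and 9.52 CPM in knockout IRI kidneys, 24.4, 103 and 143 CPM in knockout control kidneys, 67.8, 16.6 and 91.0 CPM in wild-type IRI kidneys and 9.83, 12.6 and 16.3 CPM in wild-type control kidneys. The same order held in each such group, with a coefficient of 0.37 (SE 0.05, adjusted p = 0.0207 in edgeR). That of Cyp2a4 was 0.27 (SE 0.04, adjusted p = 0.0207 in edgeR). The calls of these 3 genes ended without knockout IRI replicates 2 or 3, knockout control replicates 1, 2 or 3, wild-type IRI replicate 1 or wild-type control replicates 1, 2 or 3 (adjusted p from 0.0585 to 0.32 in edgeR) and with a filter of 1 CPM in 3 libraries or both adrenal libraries left out (adjusted p from 0.0517 to 0.0916). Each ended under some of these. All 3 also ended with a block for the replicate number (adjusted p from 0.0716 to 0.0775 in edgeR). Coefficients per 100 CPM of the linear Y-linked level were 1.82 (adjusted p = 0.0333) for Cyp2j13, 0.997 (adjusted p = 0.00154) for Cyp2d9, 1.07 (adjusted p = 6.3e-05) for Cyp2e1 and 0.73 (adjusted p = 0.00169) for Cyp2a4, a unit that cannot be set beside a doubling.

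**Figure D5:**
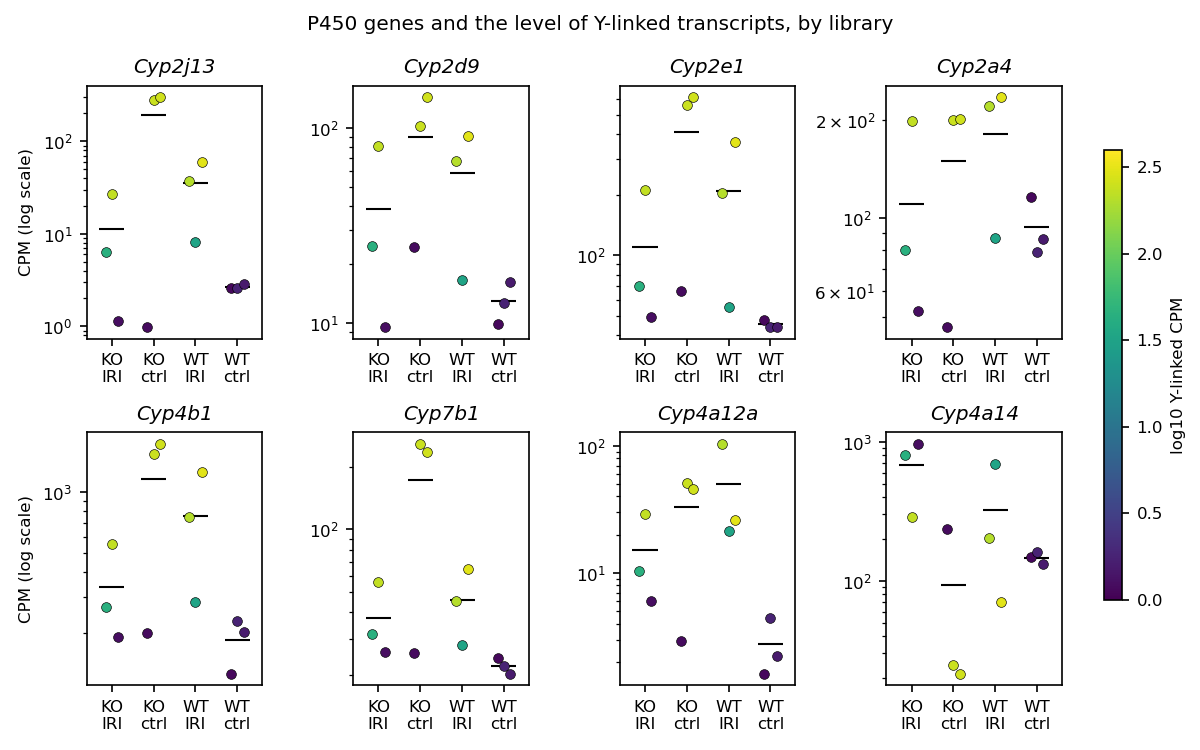
CPM on a log scale for 8 members, with 1 point for each library, coloured by the log10 of its Y-linked CPM, and a line at each group's mean. For Cyp2j13, Cyp2d9, Cyp2e1 and Cyp4b1 the yellow points of high Y-linked level lie at the top of their groups, and for Cyp4a14 at the bottom.

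Other genes known as male-biased in mouse kidney did not pass in this test. Cyp4b1 had 269, 551 and 191 CPM in knockout IRI kidneys, 198, 1543 and 1729 CPM in knockout control kidneys, 752, 286 and 1251 CPM in wild-type IRI kidneys and 125, 228 and 201 CPM in wild-type control kidneys. Its coefficient was 0.32 (SE 0.06, adjusted p = 0.0554 in edgeR). In each group of mixed Y-linked level its highest values belonged to the libraries of high level. It passed without knockout IRI replicates 1 or 3 or wild-type IRI replicate 3 (adjusted p from 0.00347 to 0.0373 in edgeR) and with DESeq2, limma-voom, no filter on low counts, the linear Y-linked level as a covariate, both adrenal libraries left out or both libraries of intermediate Y-linked level left out (adjusted p from 1.47e-07 to 0.0386). Cyp7b1 had 31.4, 55.8 and 25.8 CPM in knockout IRI kidneys, 25.6, 256 and 235 CPM in knockout control kidneys, 45.2, 27.9 and 64.5 CPM in wild-type IRI kidneys and 24.3, 22.1 and 20.4 CPM in wild-type control kidneys. Its coefficient was 0.29 (SE 0.05, adjusted p = 0.082 in edgeR), or 0.16 (adjusted p = 0.301) without knockout control replicate 1. Cyp7b1 passed without knockout IRI replicate 3 (adjusted p = 0.000646 in edgeR) and with DESeq2, limma-voom, the linear Y-linked level as a covariate or both adrenal libraries left out (adjusted p from 4.56e-06 to 0.0283). Its 2 values over 200 CPM were in the knockout control libraries of high level. The coefficients of Cyp4a12a, Cyp4a12b and Cyp2j5 were 0.42, 0.30 and 0.07 (adjusted p = 0.132 in edgeR, adjusted p = 0.172 in edgeR and adjusted p = 0.631 in edgeR). Cyp4a14, known as female-biased, had a coefficient of -0.39 (SE 0.07, adjusted p = 0.0689 in edgeR) and passed without knockout IRI replicates 1 or 3 or wild-type IRI replicate 3 (adjusted p from 0.0102 to 0.0432 in edgeR) and with DESeq2, no filter on low counts, the linear Y-linked level as a covariate, both adrenal libraries left out or both libraries of intermediate Y-linked level left out (adjusted p from 2.05e-06 to 0.0484). The log2 fold changes of IRI in wild type were 2.05 for Cyp4b1 and 2.20 for Cyp2e1, neither called (adjusted p = 0.0661 in edgeR and adjusted p = 0.077 in edgeR), and became -0.20 (adjusted p = 0.864) and -0.39 (adjusted p = 0.745) with the log2 Y-linked level as a covariate.

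Between genotypes no member was called. In control kidneys 0 of 72 were called, beside 0.0104% of all genes tested, or 0.0052% in each direction, and 15 had an unadjusted p under 0.05. After IRI 0 of 72 were called, beside 0.0104% of all genes, or 0.0052% in each direction, and 1 had an unadjusted p under 0.05. For neither condition was the share of all genes with such an unadjusted p counted. DESeq2 called 4 higher and 1 lower in control kidneys, Cyp2b10, Cyp2j13, Cyp4b1 and Cyp7b1 higher and Cyp4f14 lower, and limma-voom none. It called none after IRI. Without knockout control replicate 1, edgeR called Cyp2j13, Cyp4b1 and Cyp7b1 higher in knockout control kidneys. That library is the 1 knockout control of low Y-linked level, so that all libraries left in the group were of high level and those of wild type of low level. Without wild-type IRI replicate 2, Cyp46a1 and Cyp2j7 were called higher in knockout after IRI. Log2 fold changes of knockout over wild type in control kidneys were 2.95 (SE 0.68, adjusted p = 0.606 in edgeR) for Cyp7b1, 6.18 (SE 1.68, adjusted p = 0.624 in edgeR) for Cyp2j13 and 2.65 (SE 0.75, adjusted p = 0.626 in edgeR) for Cyp4b1. With the log2 Y-linked level as a covariate they were 1.06 (adjusted p = 1), 0.05 (adjusted p = 1) and 0.60 (adjusted p = 1). At the low Y-linked level, knockout control replicate 1 had 25.6 CPM of Cyp7b1, against a mean of 22.3 CPM in wild-type control, and 198 CPM of Cyp4b1, against 185 CPM. For Cyp2j13 it had 0.981 CPM, against a mean of 2.68 CPM, a log2 ratio of -1.45 from 1 library. Cyp4f14 was lower in every knockout control library, at 2.05, 1.26 and 1.44 CPM in knockout control kidneys, against 4.37, 4.21 and 3.66 CPM in wild-type control kidneys, but did not pass (log2 fold change -1.36, SE 0.36, adjusted p = 0.624 in edgeR). Cyp24a1 had a log2 fold change of -1.09 (SE 0.61, adjusted p = 0.999 in edgeR) there, with overlap, and -0.65 (adjusted p = 1) without wild-type control replicate 1.

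The response to IRI was not shown to differ between genotypes for any member. The interaction called 0 of 72 members and 0% of all genes tested by edgeR, and 13 members had an unadjusted p under 0.05. The share of all genes with such a p was not counted for the interaction. DESeq2 called Cyp4f14 higher and Cyp4b1 and Cyp2b10 lower in it, and limma-voom none. Without knockout control replicate 1, edgeR called Cyp7b1 lower. Differences of IRI effects, knockout minus wild type, were wide for Cyp2j13, with -7.79 (SE 2.14, adjusted p = 0.666 in edgeR), and for Cyp4a12a, with -5.32 (SE 1.39, adjusted p = 0.666 in edgeR). They were -0.25 (adjusted p = 1) and -1.71 (adjusted p = 1) with the log2 Y-linked level as a covariate. Knockout and wild-type effects of IRI lay close together for Cyp51, at -2.23 and -2.14, for Cyp2d12, at -1.71 and -1.80, and for Cyp4a10, at 1.13 and 1.17. The interaction of Cyp51 was -0.09 (SE 0.40, adjusted p = 0.937 in edgeR).

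Of 8 electron carriers and related genes, which serve the P450 enzymes as partners, 0 were called higher and 1 lower in knockout, beside 6.32% of all genes called. In wild type 1 was called higher and 1 lower, beside 22.5% of all genes called. Por, the reductase that feeds the enzymes of the endoplasmic reticulum, had 209.8, 207 and 200.5 CPM in knockout IRI kidneys, 211, 279 and 267 CPM in knockout control kidneys, 247, 204 and 443 CPM in wild-type IRI kidneys and 323, 276 and 262 CPM in wild-type control kidneys. Wild-type IRI replicate 3 stood highest, and no comparison of Por passed. Cyb5b, a cytochrome of the mitochondrial outer membrane, fell in knockout (log2 fold change -0.80, SE 0.15, adjusted p = 0.015 in edgeR) and in wild type (log2 fold change -0.61, SE 0.15, adjusted p = 0.0194 in edgeR). Cyb5r3, a cytochrome b5 reductase, rose in wild type (log2 fold change 0.96, SE 0.24, adjusted p = 0.0187 in edgeR). Cyb5a had -0.83 (SE 0.22, adjusted p = 0.0519 in edgeR) in knockout. The mitochondrial electron donor Fdx1 and its reductase Fdxr were highest in knockout IRI replicate 2, one of the adrenal libraries, at 82.0 and 60.3 CPM, against 32.1 to 48.3 and 3.64 to 19.9 CPM in the 11 others. The calls of Cyb5b and Cyb5r3 ended without knockout IRI replicates 2 or 3, knockout control replicates 2 or 3, wild-type IRI replicate 1 or wild-type control replicates 2 or 3 (adjusted p from 0.0552 to 0.0777 in edgeR) and with both adrenal libraries left out, a fit restricted to the 2 groups, the log2 Y-linked level as a covariate or the linear Y-linked level as a covariate (adjusted p from 0.0704 to 0.356), each under some of them. The value of Cyb5r3 was 0.39 (adjusted p = 0.356) with the log2 and 0.52 (adjusted p = 0.0982) with the linear Y-linked level.

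Of 8 genes of haem synthesis, none was called in knockout, beside 6.32% of all genes, and 2 were higher and 1 lower in wild type, beside 13.1% and 9.41%. Alas1, the rate-limiting enzyme of that pathway, had 222, 147 and 363 CPM in wild-type IRI kidneys, against 112, 116 and 154 CPM in wild-type control kidneys. The groups overlapped, and the gene was called higher (log2 fold change 0.94, SE 0.28, adjusted p = 0.0373 in edgeR). Urod, a later enzyme of the pathway, was called lower (log2 fold change -0.43, SE 0.14, adjusted p = 0.0455 in edgeR). Of 4 eicosanoid genes, the synthases of prostacyclin and thromboxane fell in wild type, where 9.41% of all genes did, Ptgis (log2 fold change -1.03, SE 0.22, adjusted p = 0.0104 in edgeR) and Tbxas1 (log2 fold change -1.03, SE 0.22, adjusted p = 0.0111 in edgeR). The calls of Alas1, Urod, Ptgis and Tbxas1 each ended under some of these: without knockout IRI replicates 1 or 3, knockout control replicates 1, 2 or 3, wild-type IRI replicates 1 or 3 or wild-type control replicates 1, 2 or 3 (adjusted p from 0.0512 to 0.141 in edgeR) and with a fit restricted to the 2 groups, the log2 Y-linked level as a covariate, the linear Y-linked level as a covariate, both adrenal libraries left out or no filter on low counts (adjusted p from 0.0502 to 0.392). Without wild-type IRI replicate 3 the value of Alas1 was 0.54 (adjusted p = 0.115). The calls of Alas1 and Urod also ended with a block for the replicate number (adjusted p = 0.0537 and 0.0855 in edgeR).

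Among 17 regulators of P450 genes that passed the filter, of 18, 1 was called lower in knockout and 1 higher and 4 lower in wild type. Of all genes, 6.32% were called in knockout and 22.5% in wild type. Srebf2, whose product drives the genes of sterol synthesis, had 94.9, 95.5 and 101.3 CPM in knockout IRI kidneys, 128, 131 and 139.6 CPM in knockout control kidneys, 106, 96.2 and 108 CPM in wild-type IRI kidneys and 130.1, 142 and 143 CPM in wild-type control kidneys. All IRI libraries were below all control libraries. It fell in knockout (log2 fold change -0.45, SE 0.09, adjusted p = 0.0161 in edgeR) and in wild type (log2 fold change -0.42, SE 0.09, adjusted p = 0.00929 in edgeR). Hnf4a, which encodes the nuclear receptor of liver and proximal tubule genes, fell in wild type (log2 fold change -0.63, SE 0.20, adjusted p = 0.0402 in edgeR), with -0.53 (SE 0.19, adjusted p = 0.134 in edgeR) in knockout. Stat5b, of growth hormone signalling, was called lower in wild type (log2 fold change -0.40, SE 0.10, adjusted p = 0.0193 in edgeR), and Nfe2l2, of the oxidative stress response, higher (log2 fold change 0.46, SE 0.13, adjusted p = 0.0299 in edgeR). Ppara, Ahr and Vdr were called in no comparison, with log2 fold changes after IRI of 0.07, 0.10 and -0.36 in knockout and -0.24, 0.17 and -0.39 in wild type. Nr1i3, the gene of CAR, was at most 0.173 CPM in all libraries and was not tested. A block for the replicate number ended the wild-type calls of Hnf4a and Nfe2l2 (adjusted p = 0.068 and 0.063 in edgeR). The wild-type calls of Srebf2, Hnf4a, Stat5b and Nfe2l2 each ended under some of these: without knockout IRI replicates 1 or 3, knockout control replicate 2, wild-type IRI replicates 1 or 3 or wild-type control replicates 1, 2 or 3 (adjusted p from 0.051 to 0.114 in edgeR) and with a fit restricted to the 2 groups, the log2 Y-linked level as a covariate, the linear Y-linked level as a covariate or both adrenal libraries left out (adjusted p from 0.0586 to 0.209). The knockout call of Srebf2 ended without knockout IRI replicate 2 or knockout control replicates 2 or 3 (adjusted p from 0.0664 to 0.0821 in edgeR) and with both adrenal libraries left out (adjusted p = 0.345).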

How the data were processed

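The deposited table held whole-number counts of reads per gene made by the authors, 1 column for each library. Per the labels' protocols, RNA was depleted of ribosomal RNA (Ribo-off), made into directional NEBNext libraries and sequenced in pairs on a NovaSeq instrument. STAR and the build mm10 are named in the submitters' processing notes, per the labels. The counting tool and its strand setting were not stated. Samples were grouped by the genotype and treatment of the labels.

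Genes passed filterByExpr of edgeR (minimum count 10, minimum total 15), which left 19218. They were scaled by TMM (factors 0.9002 to 1.0598) and tested by edgeR's quasi-likelihood test (edgeR 4.0.16, limma 3.58.1, DESeq2 1.42.0, R 4.3.3) in 1 fit of 12 libraries, with Benjamini-Hochberg adjusted p under 0.05 as a call. The 6 tests were IRI in each genotype, genotype in each condition, their interaction, and the log2 Y-linked level within groups. CPM is the count relative to the scaled library size, and levels between genes were divided by exon length. Scripts were tested on simulated data. There the test of IRI recovered 32% of 2-fold and 72% of 4-fold changes in wild type, and 43% and 73% in knockout. Far fewer genes were changed there than were called after IRI in these data, so that the Benjamini-Hochberg adjustment was stricter. Each pair of rates came from 1 random draw. The rates are thus not the power of the tests of the members, and their gap between genotypes was not tested. A member that was not called may still have changed.

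Alternatives were RLE scaling, DESeq2, limma-voom, other filters, a fit restricted to the 2 groups, a block for the replicate number, Y-linked covariates, and leaving libraries out. Members and lists were chosen with earlier results of these data known. Named are up to 8 called members in each direction of a comparison by size of change, the 10 of highest level, a list of 18 members whatever their values, and called partners and regulators, up to 4 in each direction. The other members named, among them further called ones, were chosen after their values were seen. Some called genes of the partner and regulator lists are not reported here.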

Additional observations from a re-analysis of the deposited data

Results flagged for a closer look

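Adrenal P450 genes, which the gene rule leaves out, were found in a pair of libraries at levels above those of all control libraries. Cyp11a1, the side-chain cleavage enzyme of steroid synthesis, had 32.5 and 169 CPM in knockout IRI replicates 1 and 2, against at most 0.276 CPM in a control library. Cyp11b1, of glucocorticoid synthesis, had 46.7 and 250.2 CPM in them, against at most 0.383 CPM. Cyp21a1, the steroid 21-hydroxylase gene, had 26.5 and 136 CPM, against at most 0.598 CPM.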

How the results depend on the processing

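Counts of called members moved as follows, with main values in knockout of 1 higher and 7 lower after IRI, and in wild type of 7 higher and 17 lower. In knockout after IRI, the higher count was 5 with DESeq2, 3 with the log2 and 5 with the linear Y-linked level, 0 without the adrenal libraries, and 0 to 6 over leaving out each library; the lower count was 15 with DESeq2, 16 with the linear Y-linked level, 0 without the adrenal libraries, 12 without both libraries of intermediate Y-linked level, and 1 to 13 over leave-outs. In wild type, the higher count was 15 with DESeq2, 3 with the log2 Y-linked level, 11 without the intermediate libraries, and 4 to 12 over leave-outs. The lower count there was 10 with only the groups compared, 4 with the log2 and 7 with the linear Y-linked level, the last beside 8 higher, and 8 to 24 over leave-outs. Between genotypes in control kidneys, DESeq2 called 4 higher and 1 lower, and leave-outs gave 0 to 3 higher. After IRI, leave-outs gave 0 to 2 higher. In the interaction DESeq2 called 1 higher and 2 lower, and leave-outs gave 0 to 1 lower. For the Y-linked level, of 4 higher and 0 lower, DESeq2 called 10 higher and 2 lower and the linear level 8 higher and 5 lower; lower calls were 1 with no filter, 1 without the adrenal libraries and 2 without the intermediate libraries. Leave-outs gave 1 to 6 higher and 0 to 2 lower. The cause of these moves was not tested. Shares of all genes called were counted in the main fit only, so that the moves are not shown to be particular to the members.

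Values that changed sign were all uncalled. In wild type after IRI, Cyp4b1 was -0.20 with the log2 Y-linked level, and Cyp2e1 was -0.39 with the log2 and -0.10 with the linear level. In knockout, Cyp39a1 was 0.032 without the adrenal libraries, and Cyp4a12a 0.026 with the linear level. Cyp4a12b, at -0.01, was 0.32 with limma-voom, 0.56 and 0.80 with the log2 and linear level, and 0.15 without the intermediate libraries, with -0.68 to 0.34 over leave-outs.

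No pairing by replicate number was seen: deviations of same-numbered samples correlated at -0.4172 to 0.0773, and 0 libraries correlated best with their own number. The Y-linked level and the adrenal transcripts also differed between same-numbered libraries, so that these correlations cannot exclude a pairing or a shared batch. With a replicate block, 0 members were called higher and 3 lower in knockout, 7 and 12 in wild type, and 1 higher for the Y-linked level. Members under about 1 CPM are limited by depth.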
